A study of Homo sapiens with 9 samples.

Results

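The SMAD proteins carry the signal of TGF-beta from its receptors to chromatin, and the genes described here are these carriers and a set of genes that SMAD3 and SMAD4 are known to induce. The 10 genes were SMAD2, SMAD3, SMAD4, SMAD6, SMAD7, SKI, SKIL, PMEPA1, PDGFB and TGFBI. They were taken by symbol from a table of 51796 genes, and all 10 were found and had enough reads to be among the 14582 genes tested. The rule that lists them uses no measured value, but they and the other gene lists below were chosen with earlier results of these data known.

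RNA sequencing was done on A549, an established line of human lung adenocarcinoma cells. One group of cells carried a stable short hairpin RNA against PRMT5, an arginine methyltransferase that makes most of the symmetric dimethylarginine in the cell. A second group carried one against MEP50, the partner protein of PRMT5, whose gene is WDR77. The control group carried one against GFP, and cells of all 3 groups grew in medium with serum under puromycin. Each group had 3 libraries, which the labels call biological replicates without saying whether the cells were transduced separately, so p-values measure the spread between these libraries. The hairpin sequences, their number per gene and whether each line was a clone are not given in the sources used here, and no added TGF-beta is mentioned in the labels.

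Each hairpin lowered its own target. In CPM (counts of a gene relative to all reads on genes, scaled by TMM), PRMT5 stood at 70.1, 67.5 and 69.2 with PRMT5 knocked down, 211, 199.7 and 200.4 CPM in the MEP50 knockdown and 212, 209 and 205 CPM in the GFP control. WDR77 was at 43.2, 46.9 and 42.1 CPM in the PRMT5 knockdown, 13.6, 10.7 and 13.3 CPM in the MEP50 knockdown and 39.2, 39.6 and 39.3 CPM in the control. The libraries held 20806181 to 31586128 reads on genes. Of the epithelial markers, KRT8 and KRT18 lay between 1892 and 3294 CPM in all 9 libraries, while EPCAM never passed 7 reads and KRT19 never passed 2 reads. PTPRC, a marker of blood cells, reached at most 1 read, and CD3E and HBB were at 0 in every library.

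TGF-beta binds a pair of receptor kinases that phosphorylate SMAD2 and SMAD3, which then join SMAD4 and enter the nucleus. Among the genes they switch on are brakes on the same pathway. SMAD6 and SMAD7 are inhibitory SMADs, SKI and SKIL are corepressors that bind the SMAD complex, and PMEPA1 is a membrane protein that takes SMAD2 and SMAD3 away from the receptor. PDGFB encodes a chain of platelet-derived growth factor, and TGFBI encodes a secreted matrix protein named for its induction by TGF-beta. In lung carcinoma cells the pathway is known both for growth arrest and for the passage to a mesenchymal, invasive state.

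SMAD3 and SMAD4 contact DNA at the SMAD box, GTCT, or AGAC on the other strand. Stretches of 60 bases upstream of annotated starts are shown for 5 of the genes, because these are the inhibitory SMADs and the induced genes whose levels are compared here. Within its window of 250 bases, each stretch is the one with the most SMAD boxes, or for SMAD6 the one around a palindrome. The stretches were thus chosen for their boxes. They are RefSeq sequences on GRCh38.p14, written 5′ to 3′ on the strand of the gene, with SMAD boxes on either strand in capitals. SMAD6 is from chr15:66702176-66702235 (plus strand), SMAD7 from chr18:48949506-48949565 (minus strand) and SKIL from chr3:170357570-170357629 (plus strand). PMEPA1 is from chr20:57690753-57690812 (minus strand) and TGFBI from chr5:136028738-136028797 (plus strand).
SMAD6: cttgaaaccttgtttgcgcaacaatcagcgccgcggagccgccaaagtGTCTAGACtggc
SMAD7: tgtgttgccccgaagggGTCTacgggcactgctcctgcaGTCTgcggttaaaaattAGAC
SKIL: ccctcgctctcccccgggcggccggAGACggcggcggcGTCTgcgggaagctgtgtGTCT
PMEPA1: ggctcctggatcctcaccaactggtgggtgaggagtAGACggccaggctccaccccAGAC
TGFBI: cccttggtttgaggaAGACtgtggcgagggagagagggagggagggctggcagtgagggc

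The SMAD6 stretch ends at the annotated start and holds the palindrome GTCTAGAC, in which SMAD boxes of both strands meet. Over 34941 RefSeq windows of 250 bases, 77.5% held at least 1 SMAD box and 64 (0.183%) held the palindrome. The 3 windows of SMAD7 held 4, 5 and 1 SMAD boxes in their 250 bases, and the one shown, chosen after the boxes were counted, holds the most. The SKIL window held 3, and the median over all windows was 1. PMEPA1 had 4 annotated windows with 2 boxes each, and the one shown, unlike the others, has both within 60 bases. The TGFBI window had 1 box. The window of SMAD4 held none. The 5 windows of SMAD3 held 0, 0, 2, 2 and 5 boxes. Of the other motifs searched on both strands, GGCGC was in 44.4% of all windows, GGCCG in 44.6% and the AP-1 site TGANTCA in 6.59%. The GC-rich element GGCGC was in the windows shown for SMAD6, SKIL, PMEPA1 and TGFBI and not in that of SMAD7, while GGCCG was in all 5. AP-1 letters were found in 1 window of these genes, the third of SMAD3. A box can overlap the palindrome, and GGCGC can overlap GGCCG. A match describes letters and not a bound site, and SKI and PDGFB are named only.

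With PRMT5 knocked down, 7 of the 10 genes passed the test against the GFP control (edgeR's quasi-likelihood test, Benjamini-Hochberg adjusted over all genes at 0.05), 6 higher and 1 lower. Of all genes tested 51% passed, 26.1% higher and 24.9% lower. With MEP50 knocked down, 7 genes again passed, 6 higher and 1 lower, against 51.7% of all genes, 26.5% higher and 25.2% lower. The median log2 fold change of the 10 genes was 0.25 after knockdown of PRMT5 and 0.38 after that of MEP50, where the medians of all genes were 0.0032 and -0.0019. A change of at least 2-fold among called genes was seen for 1 of the 10 after knockdown of PRMT5 and 2 after that of MEP50, against 7.25% and 7.51% of all genes. Both comparisons use the same control libraries, so their values are not independent.

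**Figure D1:**
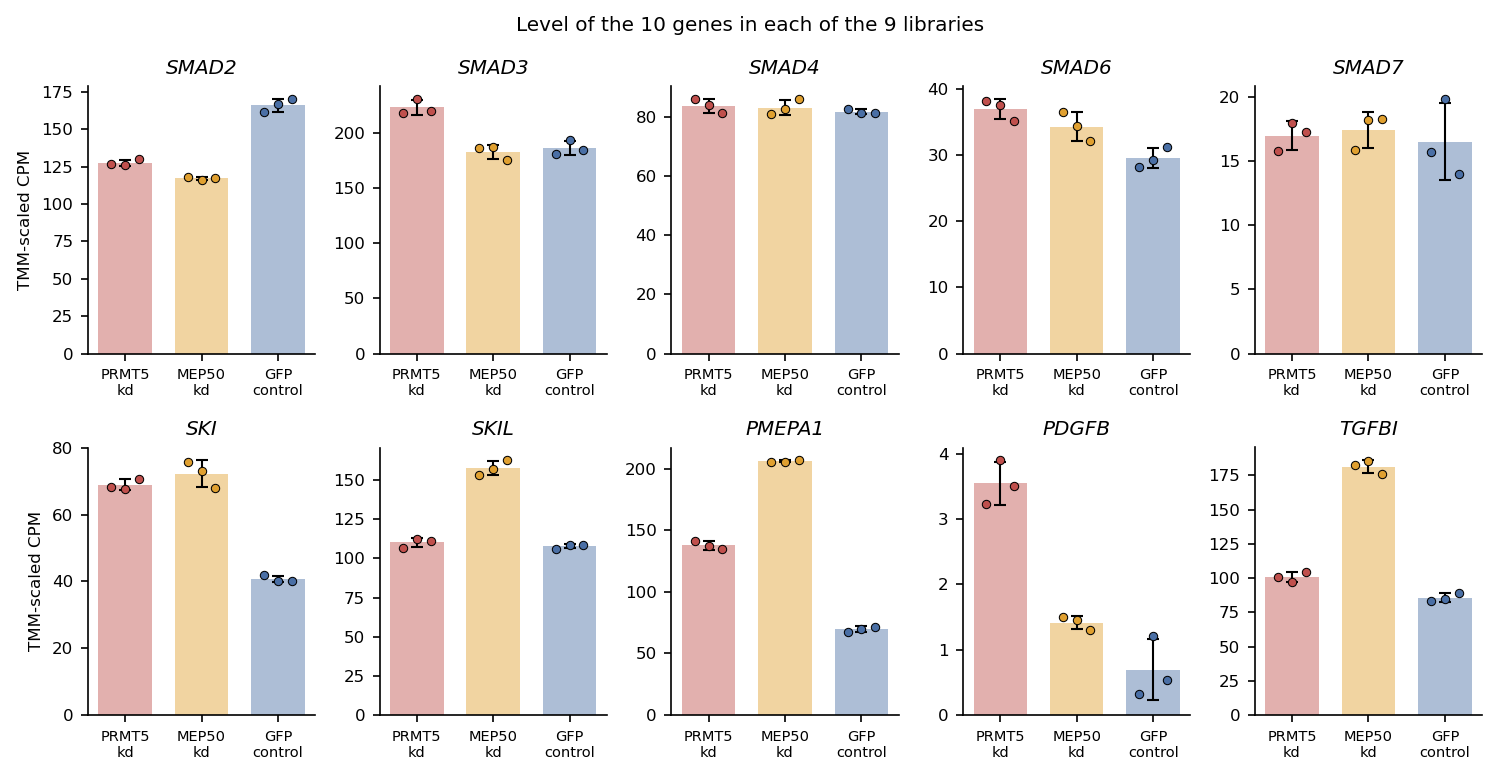
Level of each of the 10 genes in TMM-scaled CPM (vertical axes, each from 0) in the PRMT5 knockdown, the MEP50 knockdown and the GFP control. Points are libraries, bars are means of 3 libraries and error bars are SD. SMAD2 is lower in both knockdowns, SKI and PMEPA1 are higher in both, and SKIL stands apart in the MEP50 knockdown alone.

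Of the receptor-activated SMADs, SMAD2 fell in both knockdowns and SMAD3 rose in the PRMT5 knockdown. SMAD2 (ENSG00000175387) was at 127, 126 and 129.9 CPM with PRMT5 knocked down, 118, 116 and 117 CPM in the MEP50 knockdown and 162, 167 and 170.1 CPM in the control. Every knockdown library was below every control library. SMAD2 fell by 0.38 ± 0.0337 on the log2 scale in the PRMT5 knockdown (SE; edgeR adjusted p = 1.24e-12), to 76.8% of the control level. In the MEP50 knockdown it fell by 0.50 ± 0.0344 (edgeR adjusted p = 6.41e-16), to 70.6% of control. It was the single member called lower in each knockdown.

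SMAD3 (ENSG00000166949) binds DNA directly, as SMAD4 does, and drives most of the induced genes. It had 218, 231 and 219.9 CPM in the PRMT5 knockdown and 186, 187 and 175 CPM in the MEP50 knockdown. The control had 181, 193 and 184 CPM. The PRMT5 knockdown libraries lay above all others, and those of the MEP50 knockdown overlapped the control. The rise in the PRMT5 knockdown was 1.20-fold (log2 0.26 ± 0.0332, edgeR adjusted p = 1.43e-08). In the MEP50 knockdown the log2 fold change was -0.03, with a 95% interval from -0.10 to 0.04 (edgeR adjusted p = 0.493).

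SMAD4 (ENSG00000141646), the common partner that both receptor SMADs need, had 86.0, 84.0 and 81.2 CPM in the PRMT5 knockdown, 80.9, 82.6 and 85.9 CPM in the MEP50 knockdown and 82.8, 81.3 and 81.3 CPM in the control. The 3 groups overlapped. The 95% interval of its log2 fold change ran from -0.05 to 0.12 in the PRMT5 knockdown and from -0.06 to 0.11 in the MEP50 knockdown (edgeR adjusted p = 0.526 and 0.646).

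The balance of reads between SMAD2 and its partners was compared within each library. SMAD3 had 1.72, 1.83 and 1.69 reads per SMAD2 read in the PRMT5 knockdown libraries, 1.57, 1.61 and 1.49 in the MEP50 knockdown and 1.12, 1.16 and 1.08 in the control. The 3 groups did not overlap. A two-sided exact permutation test on the log2 ratio gave p = 0.1 for each knockdown against the control, the smallest that 3 against 3 libraries allow (0.133 after Benjamini-Hochberg adjustment over 12 such tests on 4 ratios). SMAD4 reads per SMAD2 read averaged 0.657 ± 0.0278 in the PRMT5 knockdown, 0.709 ± 0.0232 in the MEP50 knockdown and 0.493 ± 0.0175 in the control (SD, n = 3), again without overlap between either knockdown and the control and with the same exact p of 0.1.

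Of the inhibitory SMADs, SMAD6 rose in both knockdowns and SMAD7 passed the test in neither. SMAD6 (ENSG00000137834), which acts mainly against BMP signals, was at 38.2, 37.6 and 35.3 CPM in the PRMT5 knockdown, 36.6, 34.4 and 32.1 CPM in the MEP50 knockdown and 28.3, 29.3 and 31.3 CPM in the control. Both knockdowns lay above the control without overlap and overlapped each other. SMAD6 rose by 0.32 ± 0.063 on the log2 scale in the PRMT5 knockdown and by 0.21 ± 0.0647 in the MEP50 knockdown (edgeR adjusted p = 4.27e-05 and 0.00603).

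SMAD7 (ENSG00000101665), which blocks the TGF-beta receptor itself and is the classic early feedback gene, had 15.8, 17.97 and 17.3 CPM in the PRMT5 knockdown, 15.9, 18.2 and 18.3 CPM in the MEP50 knockdown and 15.8, 19.9 and 13.98 CPM in the control. The control libraries spanned the range of both knockdowns. Its 95% interval ran from -0.16 to 0.24 on the log2 scale in the PRMT5 knockdown and from -0.12 to 0.28 in the MEP50 knockdown (edgeR adjusted p = 0.766 and 0.549). Changes within these intervals are thus not excluded. SMAD7 reads per SMAD6 read averaged 0.46 ± 0.0416 in the PRMT5 knockdown, 0.511 ± 0.0699 in the MEP50 knockdown and 0.561 ± 0.116 in the control (SD, n = 3), with exact permutation p of 0.3 and 0.5 against the control.

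Of the corepressors, SKI rose in both knockdowns and SKIL in the MEP50 knockdown. SKI (ENSG00000157933) was at 68.3, 67.6 and 70.7 CPM in the PRMT5 knockdown, 75.8, 73.0 and 67.9 CPM in the MEP50 knockdown and 41.8, 40.2 and 40.1 CPM in the control. Both knockdowns were far above the control and overlapped each other. The rise was 1.69-fold in the PRMT5 knockdown (log2 0.76 ± 0.0494) and 1.77-fold in the MEP50 knockdown (log2 0.83 ± 0.0501), with edgeR adjusted p = 1.31e-16 and 1.4e-17.

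SKIL (ENSG00000136603), also called SnoN and itself a feedback gene of TGF-beta, was at 107, 112 and 111 CPM in the PRMT5 knockdown, 153, 157 and 163 CPM in the MEP50 knockdown and 106, 109 and 109 CPM in the control. The PRMT5 knockdown overlapped the control, and the MEP50 knockdown lay above both. Its log2 fold change in the MEP50 knockdown was 0.55 ± 0.036 (edgeR adjusted p = 1.74e-16). In the PRMT5 knockdown it was 0.03, with a 95% interval from -0.04 to 0.10 (edgeR adjusted p = 0.506).

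SKIL reads per SKI read were 1.56, 1.66 and 1.57 with PRMT5 knocked down, 2.02, 2.15 and 2.40 in the MEP50 knockdown and 2.54, 2.71 and 2.71 in the control. The control was highest, the PRMT5 knockdown lowest, and no 2 groups overlapped (exact permutation p = 0.1 for each pair, the smallest possible).

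**Figure D2:**
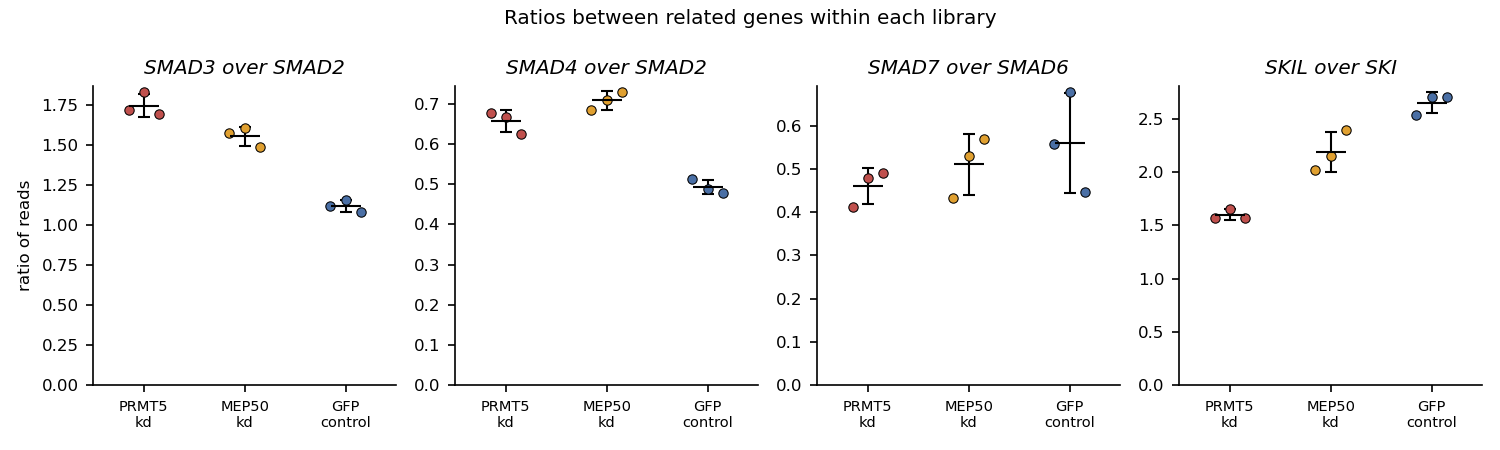
Ratio of the reads of 2 related genes in each library (vertical axes, each from 0, no unit) for the PRMT5 knockdown, the MEP50 knockdown and the GFP control. Points are libraries, horizontal lines are means of 3 and error bars are SD. SMAD3 and SMAD4 are higher relative to SMAD2 in every knockdown library, SKIL is lower relative to SKI, and the SMAD7 to SMAD6 ratios overlap.

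PMEPA1 (ENSG00000124225) rose in both knockdowns and had the largest log2 fold change of the 10 genes in the MEP50 knockdown. It had 141, 137 and 134 CPM in the PRMT5 knockdown, 205, 206 and 207 CPM in the MEP50 knockdown and 67.5, 70.1 and 71.7 CPM in the control. The groups formed 3 steps, with the MEP50 knockdown on top. PMEPA1 rose 1.97-fold in the PRMT5 knockdown (log2 0.98 ± 0.0361, edgeR adjusted p = 1.04e-24) and 2.95-fold in the MEP50 knockdown (log2 1.56 ± 0.0359, edgeR adjusted p = 1.77e-31). Its absolute log2 change was larger than that of 92.1% and 96.6% of genes tested. The antisense gene NKILA overlaps PMEPA1 in 343 exon bases of GENCODE 29 and is not among the genes counted. Whether its reads went to PMEPA1 cannot be told, because the strand setting of the counting is not given. Exons of SMAD3 share 182 bases with an antisense gene, and exons of SMAD4 share 967 bases with a gene on the same strand. Neither of these overlapping genes is among the genes counted.

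TGFBI (ENSG00000120708) had 101, 97.5 and 104 CPM in the PRMT5 knockdown, 182, 186 and 176 CPM in the MEP50 knockdown and 83.2, 85.0 and 89.2 CPM in the control. It rose in both, without overlap between any groups, but by different amounts. The rise was 1.18-fold in the PRMT5 knockdown (log2 0.23 ± 0.0386, edgeR adjusted p = 2.57e-06) and 2.11-fold in the MEP50 knockdown (log2 1.08 ± 0.0379, edgeR adjusted p = 2.57e-25).

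PDGFB (ENSG00000100311) was the least abundant member and rested on few reads. It had 82, 121 and 111 reads in the PRMT5 knockdown libraries, 31, 31 and 37 in the MEP50 knockdown and 8, 36 and 15 in the control. In CPM these were 3.24, 3.90 and 3.50 with PRMT5 knocked down, 1.498, 1.45 and 1.30 in the MEP50 knockdown and 0.319, 1.21 and 0.543 in the control. The PRMT5 knockdown stood clear of both other groups, and the highest control library came close to the lowest MEP50 knockdown library.

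In the PRMT5 knockdown PDGFB rose by 2.32 ± 0.282 on the log2 scale (edgeR adjusted p = 4.73e-09), a larger absolute change than 98.8% of genes tested. In the MEP50 knockdown it rose by 0.99 ± 0.322 (edgeR adjusted p = 0.00954). That call was lost without control replicate 1 (log2 0.67, edgeR adjusted p = 0.0831) or without control replicate 3 (log2 0.82, edgeR adjusted p = 0.0516). Without control replicate 2, which held the most PDGFB reads of the control, the log2 fold change was 3.01 after knockdown of PRMT5 and 1.68 after that of MEP50 (edgeR adjusted p = 1.63e-10 and 0.000145).

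The authors' deposited tables of changed genes, made with DESeq2 and edgeR per the file headers, list 7 of the 10 genes for each knockdown. They hold 6807 genes for the PRMT5 knockdown and 6832 for the MEP50 knockdown. In the test used here, 51% and 51.7% of all genes passed. The deposited results come from the same experiment, so they are no independent check. SMAD4, SMAD7 and SKIL are not in the authors' deposited table for the PRMT5 knockdown, and SMAD3, SMAD4 and SMAD7 are not in the one for the MEP50 knockdown. For PDGFB, the authors' deposited tables give a log2 fold change by DESeq2 of 1.71 after knockdown of PRMT5 and 0.64 after that of MEP50, and by edgeR of 2.32 and 1.00.

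**Figure D3:**
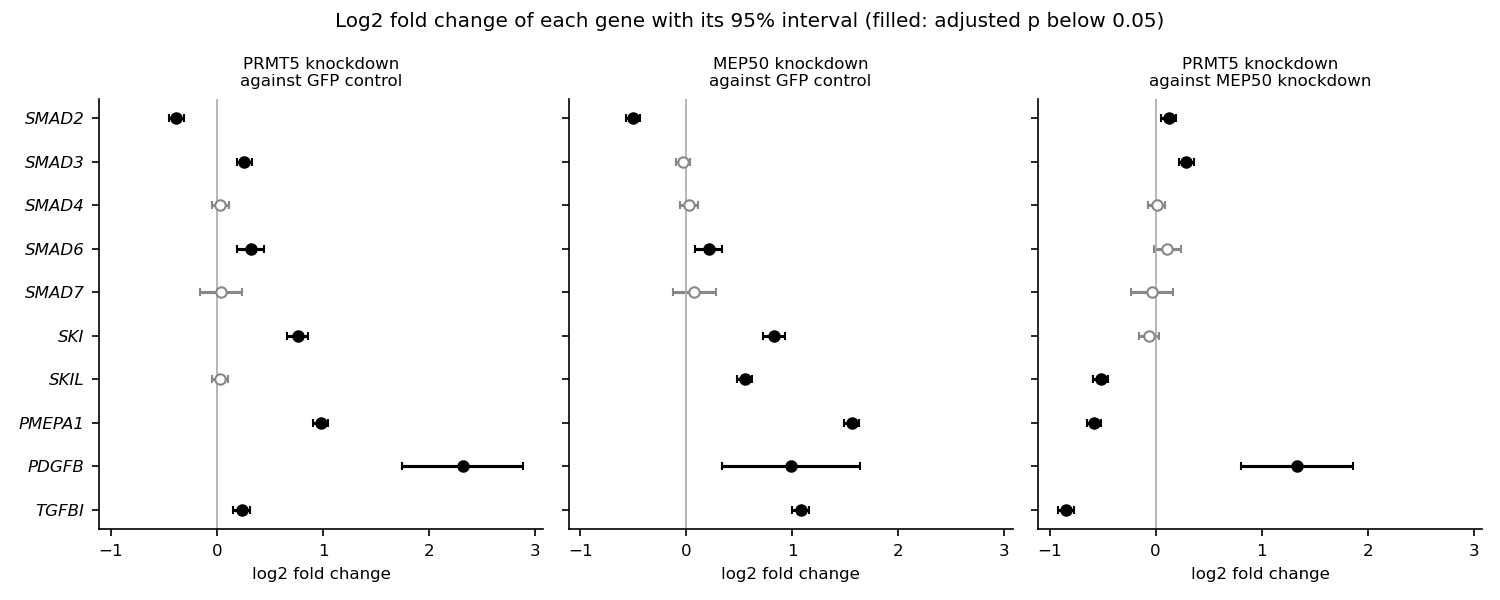
Log2 fold change (horizontal axes) of each of the 10 genes in the PRMT5 knockdown against the GFP control, the MEP50 knockdown against the control, and the PRMT5 knockdown against the MEP50 knockdown. Points are edgeR estimates, lines their 95% intervals, and filled points have an adjusted p below 0.05. The interval of PDGFB is the widest, and SMAD4 and SMAD7 are open in all 3 panels.

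Between the knockdowns, 6 of the 10 genes differed, 3 higher with PRMT5 knocked down and 3 higher with MEP50 knocked down. Of all genes tested 39.7% differed, 19.2% higher and 20.5% lower in the PRMT5 knockdown. The median log2 difference of the 10 genes was -0.01, and that of all genes was 0.0012. A difference of at least 2-fold was seen for 1 of the 10, PDGFB, and for 3.19% of all genes.

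Genes higher in the PRMT5 knockdown than in the MEP50 knockdown were PDGFB (log2 difference 1.33 ± 0.261, edgeR adjusted p = 6.27e-05), SMAD3 (0.29 ± 0.0335, edgeR adjusted p = 2.97e-09) and SMAD2 (0.12 ± 0.0348, edgeR adjusted p = 0.00476). Lower in the PRMT5 knockdown were TGFBI (-0.84 ± 0.0373, edgeR adjusted p = 3.18e-21), PMEPA1 (-0.58 ± 0.0339, edgeR adjusted p = 1.49e-17) and SKIL (-0.52 ± 0.0358, edgeR adjusted p = 2.89e-15). Both receptor SMADs were thus higher with PRMT5 than with MEP50 knocked down, though SMAD2 was below the control in either knockdown. A corepressor, a receptor-proximal brake and a matrix gene were higher with MEP50 than with PRMT5 knocked down. SMAD4, SMAD6, SMAD7 and SKI did not pass, with 95% intervals of the log2 difference from -0.08 to 0.09, -0.02 to 0.24, -0.24 to 0.16 and -0.16 to 0.03.

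Levels of different genes were compared per kilobase of the longest principal transcript in GENCODE 29. In the control the highest were TGFBI at 30.6 CPM per kb and SMAD3 at 29.8, then PMEPA1 at 14.4, SMAD4 at 9.33, SMAD6 at 7.72, SKI at 7.25, SMAD7 at 3.74 and PDGFB at 0.198. In the PRMT5 knockdown TGFBI (36.0 CPM per kb), SMAD3 (35.7) and PMEPA1 (28.4) led, and in the MEP50 knockdown TGFBI (64.7), PMEPA1 (42.5) and SMAD3 (29.2). SMAD2 and SKIL are left out of this order because their principal transcripts range from 12.1 to 34.5 kb and from 3.06 to 7.18 kb. The control libraries of TGFBI and SMAD3 overlapped on this scale, as did those of SMAD6 and SKI, so these neighbours did not differ beyond their spread. In the PRMT5 knockdown TGFBI and SMAD3 overlapped too, while in the MEP50 knockdown TGFBI, PMEPA1 and SMAD3 did not. The order depends on the length used. All annotated exons of TGFBI span 7.81 kb and its principal transcript 2.80 kb. For SMAD3 these lengths are 9.11 and 6.25 kb, for PMEPA1 5.62 and 4.85 kb, and for SMAD6 8.56 and 3.84 kb. No order by all exons was made, so the lead of TGFBI holds for the principal transcript only.

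Genes whose log2 CPM followed each member most closely over the 9 libraries were named as a description, since all points share 3 groups and library depth. For PMEPA1 they were CCDC80, FKBP5 and VLDLR (Pearson r from 0.998 to 0.999), for SKI they were EVPL, EPB41L2 and EIF4A3 (0.996 to 0.998), and for SMAD2 they were NCOA3, CEP290 and MIGA1 (0.996 to 0.998). SKIL was nearest to TMX4, PCK2 and HNRNPA1 (0.992 to 0.997) and TGFBI to CAMK2N1, AARS1 and H2AZ2 (0.992 to 0.993). For SMAD3 the nearest were LURAP1L, NTN1 and PYGB (0.974 to 0.977), for SMAD6 they were STK17A, SMIM11 and MSX1 (0.964 to 0.970), and for PDGFB they were POLR1E, ITPRIP and GCLC (0.957 to 0.964). SMAD4 and SMAD7 had no gene above 0.95 among 10614 compared, while SKI had 541, PMEPA1 had 482 and SMAD2 had 332. The nearest to SMAD4 were GABPA, ARL6IP6 and ZNF586 (0.891 to 0.942), and to SMAD7 they were UQCRHL, EIF4BP6 and MRPL23 (0.840 to 0.903).

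Upstream of the SMADs, all 3 ligand genes rose in both knockdowns. Of 11 tested ligands, receptors and latency proteins, 7 rose and 3 fell in the PRMT5 knockdown (median log2 fold change 0.47), and 8 rose and 3 fell in the MEP50 knockdown (median 0.59). Over all genes tested, 26.1% were higher and 24.9% lower in the PRMT5 knockdown, and 26.5% higher and 25.2% lower in the MEP50 knockdown. The ligand gene TGFB2 averaged 74.6 CPM in the PRMT5 knockdown and 22.1 CPM in the control (log2 1.76 ± 0.0568, edgeR adjusted p = 1.22e-26), and TGFB3 averaged 5.61 CPM against 2.46 CPM in the control (log2 1.18 ± 0.176). TGFB1 averaged 247 CPM in the MEP50 knockdown and 112 CPM in the control (log2 1.13 ± 0.0379, edgeR adjusted p = 1.5e-24). BAMBI, a decoy receptor that is itself a feedback gene, averaged 11.9 CPM in the PRMT5 knockdown, 13.7 CPM in the MEP50 knockdown and 37.3 CPM in the control (log2 -1.64 ± 0.0789 and -1.44 ± 0.0799). TGFBR3, the coreceptor betaglycan, averaged 11.3 CPM in the MEP50 knockdown and 35.3 CPM in the control (log2 -1.64 ± 0.0842), and it fell in the PRMT5 knockdown too (log2 -1.12 ± 0.078). The receptor gene TGFBR2 averaged 88.0 CPM in the PRMT5 knockdown, 103.7 CPM in the MEP50 knockdown and 151.5 CPM in the control. Its log2 fold changes were -0.78 ± 0.0376 and -0.55 ± 0.0378 (edgeR adjusted p = 7.33e-21 and 8.49e-16). The receptor gene TGFBR1 rose in both (log2 0.19 and 0.22). BAMBI thus fell in both knockdowns while PMEPA1 and SKI rose.

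Among 26 tested regulators of SMADs, a list that mixes activators and inhibitors, 8 rose and 7 fell in the PRMT5 knockdown (median log2 -0.03), and 10 rose and 8 fell in the MEP50 knockdown (median 0.03). The share called is near the 51% of all genes in the PRMT5 knockdown and above the 51.7% of all genes in the MEP50 knockdown. The ubiquitin ligase gene SMURF2, whose product acts with SMAD7 on the receptor, averaged 46.6 CPM in the PRMT5 knockdown, 45.5 CPM in the MEP50 knockdown and 30.9 CPM in the control (log2 0.59 ± 0.0577 and 0.56 ± 0.0589). TGIF2, a corepressor of SMADs, averaged 40.5 CPM in the PRMT5 knockdown and 23.7 CPM in the control (log2 0.78 ± 0.0653), and CTDSP2, a SMAD phosphatase, 78.4 CPM against 129.7 CPM (log2 -0.73 ± 0.0411). USP9X, which removes ubiquitin from SMAD4, averaged 385 CPM in the MEP50 knockdown and 585 CPM in the control (log2 -0.61 ± 0.0262), and ZFYVE9, the receptor anchor SARA, 42.4 CPM against 28.0 CPM (log2 0.60 ± 0.0634). Both moved the same way in the PRMT5 knockdown (log2 -0.57 and 0.43). In the MEP50 knockdown TGIF2 also rose (log2 0.47), and CTDSP2 did not pass (log2 0.02). Of the SMADs of the BMP branch, SMAD1, SMAD5 and SMAD9 had log2 fold changes of 0.08, 0.06 and 0.02 in the PRMT5 knockdown (edgeR adjusted p from 0.151 to 0.933). In the MEP50 knockdown SMAD1 passed (log2 0.24 ± 0.0901, edgeR adjusted p = 0.0258), with libraries that overlapped the control.

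Downstream, 12 of 24 tested other genes induced through SMAD3 and SMAD4 rose and 6 fell in the PRMT5 knockdown (median log2 0.30), and 17 rose and 5 fell in the MEP50 knockdown (median 0.48). The share of these genes that fell in the PRMT5 knockdown is about that of all genes, 24.9%, while 26.1% of all genes were higher there and 26.5% higher and 25.2% lower in the MEP50 knockdown. FN1, which encodes fibronectin, averaged 19.5 CPM in the PRMT5 knockdown, 20.8 CPM in the MEP50 knockdown and 7.46 CPM in the control (log2 1.38 ± 0.0984 and 1.48 ± 0.0996). TPM1, a tropomyosin gene, averaged 301 CPM in the PRMT5 knockdown and 114 CPM in the control (log2 1.40 ± 0.0329), and TAGLN, a smooth muscle gene, 0.656 CPM against 1.80 CPM (log2 -1.44 ± 0.32). HEY1 averaged 4.46 CPM in the MEP50 knockdown and 1.43 CPM in the control (log2 1.63 ± 0.235), and the collagen gene COL1A1 18.8 CPM against 6.88 CPM (log2 1.44 ± 0.102). In the PRMT5 knockdown COL1A1 also rose (log2 0.59), and HEY1 did not pass (log2 -0.17). TPM1 and TAGLN moved the same way in the MEP50 knockdown (log2 1.15 and -0.96).

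Of 5 genes that TGF-beta is known to repress, 1 rose and 3 fell in the PRMT5 knockdown, and 5 fell in the MEP50 knockdown (medians -0.31 and -0.33), where 24.9% and 25.2% of all genes were lower and 26.1% and 26.5% higher. ID1 and ID3, which inhibit differentiation factors, fell to 50.8% and 50.3% of the control level in the PRMT5 knockdown (log2 -0.98 ± 0.0385 and -0.99 ± 0.0352). In the MEP50 knockdown CDC25A, a phosphatase of the cell cycle, fell most (log2 -0.77 ± 0.0527), with ID2 at -0.35 ± 0.0801 and ID3 at -0.33 ± 0.0346. Between the knockdowns, 3 ligands, receptors and latency proteins were higher and 3 lower with PRMT5 knocked down, as were 5 and 8 of the other induced genes, 4 and 6 of the regulators, and 3 and 2 of the repressed genes. Of all genes 19.2% were higher and 20.5% lower in that comparison, 39.7% together, which is near the share of the regulators.

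**Figure D4:**
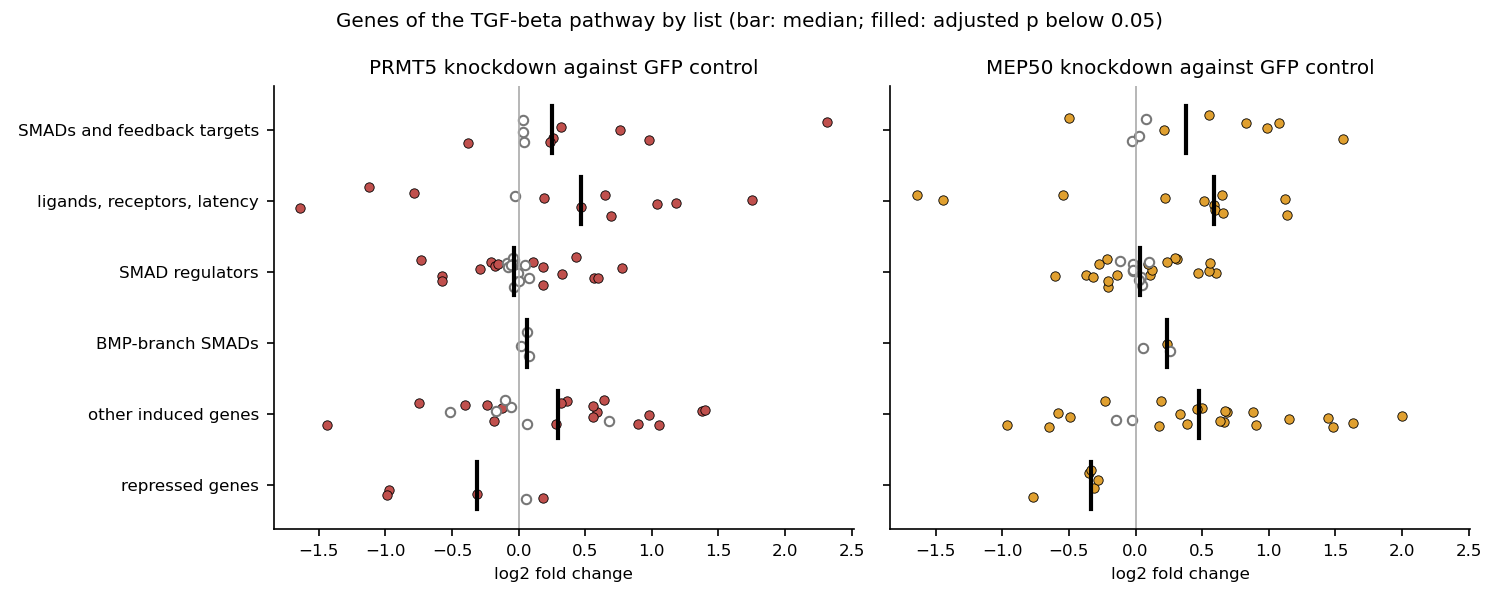
Log2 fold change (horizontal axes) of every tested gene of 6 lists, for the PRMT5 knockdown against the GFP control and the MEP50 knockdown against the control. Points are genes, filled where the adjusted p is below 0.05, and the vertical bar is the median of the list. The SMADs and feedback targets have medians of 0.25 and 0.38, and SMAD regulators lie on both sides of 0.

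Cell type markers moved with these groups. The 6 epithelial markers summed to between 4154 and 4313 CPM in the PRMT5 knockdown, 3870 and 4147 CPM in the MEP50 knockdown, and 6345 and 6575 CPM in the control. KRT8 and KRT18 made up nearly all of that sum. Of the 4 epithelial markers tested, 3 fell in the PRMT5 knockdown, and 2 rose and 2 fell in the MEP50 knockdown. CDH1, the gene of E-cadherin, averaged 34.9 CPM in the PRMT5 knockdown, 75.6 CPM in the MEP50 knockdown and 40.1 CPM in the control (log2 -0.20 ± 0.0671 and 0.92 ± 0.0641, edgeR adjusted p = 0.0131 and 8.73e-14). KRT7 was the other that rose in the MEP50 knockdown (log2 0.74 ± 0.199, edgeR adjusted p = 0.0017). The 7 fibroblast markers summed to between 221 and 233 CPM in the PRMT5 knockdown, 273 and 291 CPM in the MEP50 knockdown, and 108 and 110.3 CPM in the control, the same order as PMEPA1 and TGFBI. Most of that sum was COL3A1 (96.1 to 263 CPM). LUM, the gene of lumican, went the other way in the PRMT5 knockdown, at 0.629 CPM there, 7.90 CPM in the MEP50 knockdown and 5.17 CPM in the control (log2 -3.06 ± 0.217 and 0.61 ± 0.153, edgeR adjusted p = 2.01e-15 and 0.000845). Of the 4 fibroblast markers tested, 3 rose and 1 fell in the PRMT5 knockdown and 4 rose in the MEP50 knockdown, while DCN had at most 1 read, COL1A2 at most 2 reads and PDGFRB at most 4 reads in any library. Beside both marker lists, 26.1% of all genes were higher and 24.9% lower in the PRMT5 knockdown, and 26.5% and 25.2% in the MEP50 knockdown. The part of these markers in the results was not tested. In a bulk sample, fewer cells with a transcript and less transcript per cell cannot be told apart.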

How the data were processed

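RNA of A549 cells was depleted of rRNA and made into stranded libraries, per the labels' protocols. The authors' deposited table holds raw read counts for each Ensembl gene, which came from Trim Galore, STAR and HTSeq on hg19 per the submitters' processing notes. Versions and the strand setting of the counting are not given in the sources used here. The deposited comparison tables hold, per the file headers, log2 fold changes and adjusted p-values of DESeq2 and edgeR, and they were used only where named.

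Of 51796 genes, 26748 had a read, and 44822 identifiers (86.5%) had a symbol in the gene-name table. The 5 summary lines were left out, and reads outside genes made up 11.9% to 14.5% of each library. The counts were fitted with edgeR 4.0.16 in R 4.3.3 (TMM factors 0.9898 to 1.009, filterByExpr, robust quasi-likelihood fit, 1 fit of 9 libraries with the group as its term). This left 14582 genes, and p-values were adjusted over all of them. The SE is the size of the log2 fold change divided by the root of its F value. Intervals of fold changes cover the spread between libraries. Replicates differed by 3.24 to 4.47 times the counting variance (chi-square per degree of freedom), so none was taken as a repeat of another. The test was tried on simulated counts.

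The genes and lists were chosen with earlier results of these data known. Named from each list were up to 3 called genes per knockdown with the largest change and a mean of at least 1 CPM, and, for likeness, the 3 genes with the highest r of log2 CPM (prior count 2) at a mean of at least 5 CPM. Alternatives were RLE scaling, library totals, no low-count filter, DESeq2 1.42.0, a replicate block, fits of 6 libraries and leaving out each library. Lengths came from GENCODE 29 on GRCh38, so no hg19 coordinates are given. Of the marker lists, that of the endothelium matched 3 of 4 names and summed to at most 0.27 CPM, and that of blood to at most 0.20 CPM. Among the markers, CDH1, KRT7 and LUM were named after their values were seen, as were the receptor genes TGFBR1 and TGFBR2.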

Additional observations from a re-analysis of the deposited data

Results flagged for a closer look

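The effects of the 2 knockdowns differed for 6 of the 10 genes by the test of the PRMT5 knockdown against the MEP50 knockdown, in which the shared control drops out. The log2 differences were 0.12 for SMAD2, 0.29 for SMAD3 and 1.33 for PDGFB, each higher in the PRMT5 knockdown, and -0.52 for SKIL, -0.58 for PMEPA1 and -0.84 for TGFBI, each lower in the PRMT5 knockdown. The adjusted p-values of edgeR's quasi-likelihood test ran from 3.18e-21 for TGFBI to 0.00476 for SMAD2. Of all genes tested 39.7% passed the same test.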

How the results depend on the processing

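Over 15 alternatives, the number of the 10 genes past the threshold was 7 for the PRMT5 knockdown against the control and 6 between the knockdowns in every one. For the MEP50 knockdown against the control it was 6 without control replicate 1 or without control replicate 3, where PDGFB was lost, and 7 in the others (range over libraries left out 6 to 7). With the replicate number as a block the counts of the 10 genes were 7, 7 and 6, and 7423, 7549 and 5759 genes in all were called, against 7433, 7540 and 5787 without it. Same-numbered libraries correlated by -0.0361 to 0.0517 in their deviations from the group means, so the numbers were not taken as pairs, and the block changed no call of the 10 genes.

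Of 450 values of single genes, 11 changed sign, all of SMAD4 or SMAD7 and none of them past the threshold. They came from leaving out 1 library each, and the cause was not tested. With libraries left out, the log2 fold change of SMAD7 ranged from -0.078 to 0.20 in the PRMT5 knockdown and from -0.032 to 0.23 in the MEP50 knockdown against the control, and from -0.11 to 0.0019 between the knockdowns. That of SMAD4 ranged from -0.0084 to 0.049 in the MEP50 knockdown against the control and from -0.022 to 0.034 between the knockdowns. Another scaling moved the median of all genes by at most 0.021 on the log2 scale. PDGFB had only 8 to 36 reads in control libraries and also spread between them (SD 0.465 CPM on a mean of 0.692 CPM). SMAD7 had 386 to 590 reads there, with an SD of 3.03 CPM on a mean of 16.5 CPM. The parts of depth and of spread between libraries were not tested.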
